A study of Mus musculus with 6 samples.

Results

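Assembly factors are proteins that help build the mitochondrial respiratory chain and ATP synthase but are not, as a rule, part of the finished complexes. Their transcripts were examined in mouse beige adipocytes from which the co-repressor gene Tle3 was to be deleted. The set is a named list of 44 assembly factor genes for complexes I to IV and ATP synthase. It was chosen by name rather than by a cut on measured values, but with earlier results of these data known. Of these names, 31 stand in the table of 13962 genes and form the set described here, and 13 do not. Of the 13 absent names, Uqcc1 is the same Ensembl gene as the listed Uqcc, and 12 stand in the table under an older symbol of the same Ensembl gene ID. These 12 are described separately and not counted among the 31.

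All 6 libraries came from preadipocytes of C57BL/6 inguinal white fat with floxed Tle3 (genotype TLE3F/F CreERT2), immortalized with the large T antigen. Both groups carried the floxed alleles and the tamoxifen-inducible Cre. Both were differentiated into beige adipocytes with a cocktail that included insulin (20 nM), the thyroid hormone T3 (1 nM) and the PPARγ agonist rosiglitazone (1 uM). On day 4 the control cells (n = 3 libraries) received ethanol and the others (n = 3) 500 nM tamoxifen, named 4-hydroxytamoxifen in the growth protocol, for 24 hours, and all were harvested on day 10. No cells without Cre were given tamoxifen, so effects of the compound, of Cre activity and of the deletion cannot be told apart. Nothing in the labels says that the 3 libraries of a group came from separate cultures, so p-values cover only the spread among the 6 libraries, and that spread may be technical. The sources used here do not give the age of the source animals or how many animals or clones the cells came from.

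Each respiratory complex is put together from many subunits in the inner mitochondrial membrane, and most of these subunits are encoded in the nucleus and imported. Assembly factors stabilise intermediates, insert membrane proteins and deliver the cofactors that carry electrons, such as flavin, iron-sulphur clusters, heme and copper. Loss of a single factor often lowers the activity of 1 complex and causes inherited mitochondrial disease in humans. Brown and beige adipocytes depend on a high respiratory capacity, because the uncoupling protein UCP1 can make heat only as fast as the chain pumps protons.

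Nuclear genes of the respiratory chain are known targets of the factors NRF1, GABP (an ETS factor) and the estrogen-related receptors, so their promoters were searched for short motifs. The promoters came from RefSeq (build GRCm38.p6) and run from 250 bases before to 50 bases after the annotated start. The motifs, searched on both strands and counted once per promoter for each motif, were GCGCANGCG for NRF1, CCGGAAG for the ETS core and TCAAGGTCA for the estrogen-related receptors. Of the 31 assembly factors, 27 matched the promoter table. The ETS core was found in 11 of the 27 (40.7%), against 20.5% of the 9824 tested genes in that table and 9.93% of all its 27025 genes. The NRF1 motif was found in 3 of 27 (11.1%), against 15.6% of the tested genes and 7.03% of all genes, and the estrogen-related receptor motif in 0 of 27, against 0.326% of tested genes. Of the 9 matched factors that rose in the test described below, 3 had the ETS core and 2 the NRF1 motif. These matches describe letters in a window and are neither binding sites nor tests.

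The stretches of the 5 factors that rose and had a match are printed 5′ to 3′ on the gene's own strand. They were picked for having both, so they do not show that a match and a rise go together. Capitals mark the motif, and its first base lies 113, 2, 47, 27 and 22 bases before the start in the order printed. They lie in GRCm38.p6 at chr4:24897925-24898023 (plus strand), chr9:22085411-22085440 (minus), chr1:74588231-74588260 (plus), chr11:64079481-64079510 (minus) and chr14:54360774-54360833 (plus). The NRF1 letters in Ndufaf4 also match on the other strand, shifted by a single base, and those in Oxa1l match on the other strand only.
Ndufaf4: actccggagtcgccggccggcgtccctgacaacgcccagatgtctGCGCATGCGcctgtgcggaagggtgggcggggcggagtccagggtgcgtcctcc
Ecsit: tcgactcgtaaCCGGAAGctccgtggctca
Bcs1l: ggtgggtgtggCCGGAAGtagatgcagcag
Cox10: agcgctgggagCCGGAAGtgacaagaggaa
Oxa1l: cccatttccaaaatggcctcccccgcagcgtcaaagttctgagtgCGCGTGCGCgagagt

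Total counts per library ran from 14606228 to 19294632, and the first principal component (46.3% of the variance) separated the groups. Tle3 itself did not follow the group name. It stood at 151.4, 151.3 and 152.1 CPM (counts scaled to a common library size) in controls 1 to 3 and at 286.9, 288.9 and 294.2 CPM in the other group, 1.91-fold higher (edgeR adjusted p 3.54e-07). These counts span the whole gene, including exons outside the floxed part, and so cannot check the deletion. The group is therefore called the libraries labelled knockout, and every direction below rests on that label. All 8 adipocyte markers were found, with a summed level of 11063 to 13250 CPM in controls and 12509 to 14389 CPM in the libraries labelled knockout. Of these 8, Lipe and Cd36 rose (edgeR adjusted p 0.0368 and 0.0455), and the median log2 fold change was 0.20. Lpl was lower without overlap, at 3792 ± 224 and 3390 ± 8.37 CPM, but was not called (log2 −0.16, edgeR adjusted p 0.0992). With DESeq2, 3 of the 8 rose and 1 fell. The adipocyte markers that rose numbered 5 without control 2, 3 without labelled knockout 1 and 0 when control 1, control 3, labelled knockout 2 or labelled knockout 3 was left out. Beige markers summed to 410.0 to 487.7 CPM and 692.6 to 798.0 CPM (5 of 8 rose, among them Ucp1 and Cidea), although Dio2 stood at only 1.08 ± 0.355 and 1.52 ± 0.729 CPM. The beige marker Tmem26 went the other way without overlap, at 4.45 ± 0.155 and 3.85 ± 0.327 CPM, but was not called (log2 −0.21, edgeR adjusted p 0.348). Markers of fibroblasts and preadipocytes summed to 12239 to 14152 CPM and 12145 to 12662 CPM and moved both ways. Of 11, the preadipocyte marker Dlk1 rose 1.65-fold (log2 0.72, adjusted p 0.00363) and Lum, Dcn, Thy1 and Pdgfra fell. Those that fell numbered 7 without control 2 and 3 to 4 without any other library, and 5 with DESeq2, limma-voom or library size alone. Macrophage markers (3 of 7 names found, with Ptprc and Itgam not among them) reached 5.39 CPM at most, and endothelial markers 3.55 CPM. The 4 markers of dividing cells summed to 826.7 to 886.6 CPM in controls and 810.5 to 857.8 CPM in the libraries labelled knockout. Of these 4, 0 were called. In bulk RNA, fewer cells of a type and less RNA per cell cannot be told apart.

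The assembly factors were, as a set, modestly higher in the libraries labelled knockout. Every one of the 31 passed the filter on low counts, and 12 rose (38.7%) at an adjusted p under 0.05 in edgeR's quasi-likelihood test over all 13192 tested genes. Over all tested genes the share that rose was 6.91%. None of the 31 fell, where 5.44% of all tested genes did. At an unadjusted p under 0.05, 19 were higher and 0 lower, and DESeq2 and limma-voom also called 0 lower. All 31 fitted log2 fold changes were above 0, against 49.4% of all tested genes. In 18 of 31 (58.1%) every library labelled knockout lay above every control, a pattern seen in 16.0% of all tested genes. The median log2 fold change was 0.19, or 1.14-fold, and single factors ran from 0.02 to 0.38, while the median over all tested genes was −0.00. In the same libraries 5 of 8 beige and 2 of 8 adipocyte markers rose, and of 11 fibroblast and preadipocyte markers 4 fell and Dlk1 rose. Among the beige markers that rose, Cox8b is also counted below as a complex IV subunit and Ppargc1a as a regulator. The part of all these markers in the result was not tested.

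**Figure D1:**
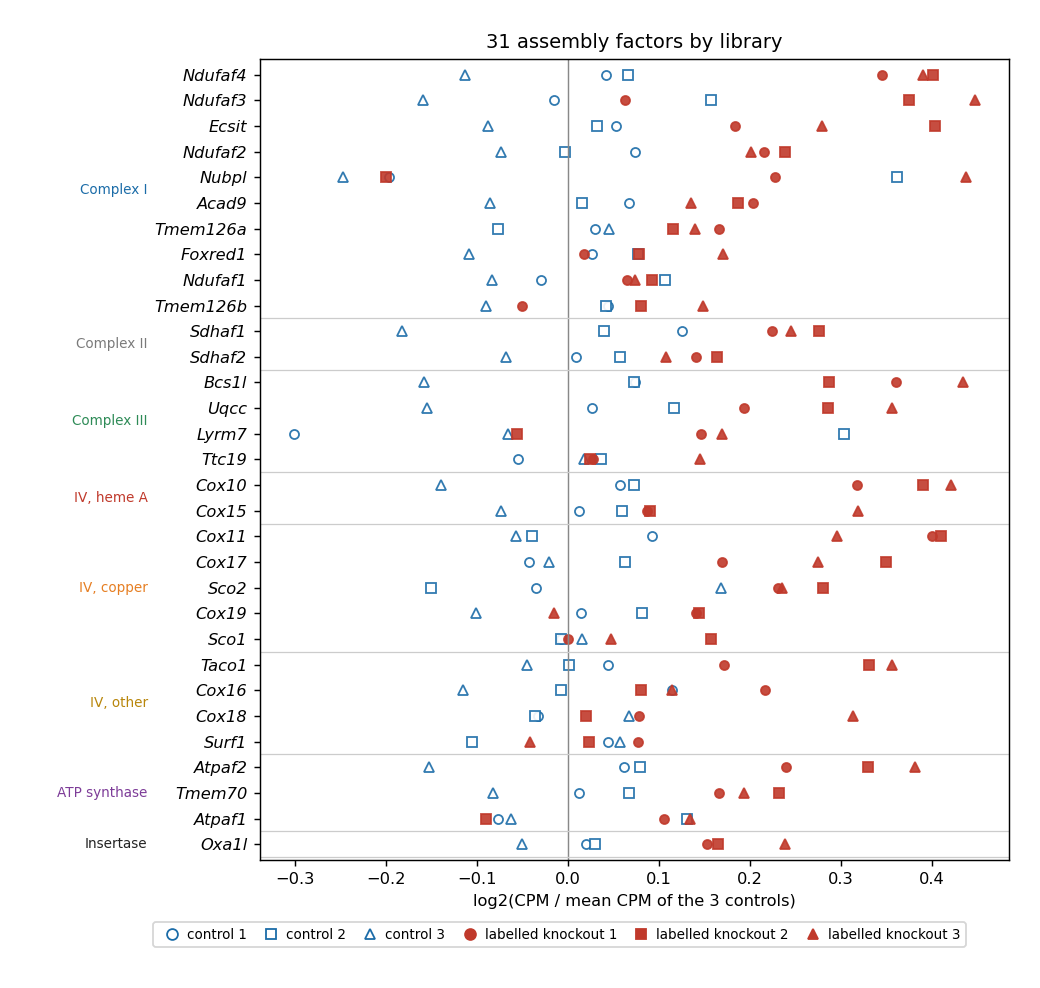
Level of each of the 31 assembly factors in each library, as log2 of its CPM over the mean CPM of the 3 controls. Open blue symbols are controls, filled red symbols the libraries labelled knockout, and the 3 shapes are the library numbers. Red symbols lie to the right of all blue ones for 18 of the 31 genes, and control 3 is the lowest library for 22.

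Among the complex I factors, 3 of 10 rose, and the median log2 fold change was 0.19. Complex I, the NADH dehydrogenase, is built from modules that join in a fixed order. Ndufaf4, which works with Ndufaf3 on an early intermediate, stood at 63.8, 64.8 and 57.3 CPM in controls and 78.7, 81.9 and 81.2 CPM in the libraries labelled knockout. The groups were far apart, with means of 62.0 ± 4.1 and 80.6 ± 1.68 CPM (SD, n = 3 each), and the rise was 1.30-fold (log2 0.38, SE 0.054, edgeR adjusted p 0.00177). Ecsit is a member of the intermediate assembly complex that builds part of the membrane arm. It read 46.4, 45.8 and 42.1 CPM in controls and 50.8, 59.2 and 54.3 CPM in the libraries labelled knockout. Its groups did not overlap, and it rose by 0.29 on the log2 scale (SE 0.064, edgeR adjusted p 0.0137). Acad9, an acyl-CoA dehydrogenase that also serves in that intermediate assembly complex, read 76.3, 73.6 and 68.7 CPM in controls and 83.9, 83.0 and 80.02 CPM in the other group. It passed only narrowly (log2 0.18, SE 0.050, edgeR adjusted p 0.0430), but not with DESeq2 (adjusted p 0.0912), with library size alone or without any 1 of the 6 libraries (0.0514 to 0.126). The call for Ecsit was lost without labelled knockout 2 (0.0544) or labelled knockout 3 (0.0597), and an antisense gene model overlaps 24.0% of its exonic length.

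Tmem126a, linked to inherited optic atrophy and to assembly of a membrane-arm module, was the complex I factor with the highest level per length, at a mean rounded FPKM of 76.5. Its CPM values were 75.8, 70.4 and 76.6 in controls and 83.3, 80.5 and 81.8 in the libraries labelled knockout. The groups did not overlap, but the change did not pass (log2 0.14, 95% interval 0.03 to 0.24, edgeR adjusted p 0.0803). Ndufaf2, a late-stage factor, had an adjusted p of 0.0548 (log2 0.22), and 65.6% of its annotated exonic length overlaps an antisense gene model that is not in the table. It passed when genes were required to reach 10 CPM in 3 libraries (edgeR adjusted p 0.0464). Ndufaf3, the partner of Ndufaf4, was at 7.47 ± 0.822 and 9.22 ± 1.26 CPM, and its wide interval (log2 0.02 to 0.59) spans both no visible change and the size seen in Ndufaf4. Nubpl, which delivers iron-sulphur clusters to complex I, was the least expressed of them per length (mean rounded FPKM 1.0), at 4.85 ± 1.2 and 5.48 ± 1.18 CPM. The other 3, Foxred1, Ndufaf1 and Tmem126b, had log2 fold changes of 0.09, 0.08 and 0.06 and adjusted p of 0.340 to 0.555. Ndufaf1 and Tmem126b work in the same intermediate assembly complex as Ecsit and Acad9.

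Neither complex II factor passed the test in edgeR, DESeq2 or limma-voom, and both had an unadjusted p under 0.05 in edgeR. Complex II is succinate dehydrogenase, which links the citric acid cycle to the chain. Sdhaf2, needed to attach the flavin to Sdha, stood at 58.1, 60.1 and 55.1 CPM in controls and 63.7, 64.7 and 62.3 CPM in the libraries labelled knockout. The groups did not overlap, with a log2 fold change of 0.14 (95% interval 0.03 to 0.25, edgeR adjusted p 0.0842). Sdhaf1, which helps the iron-sulphur subunit Sdhb mature, was at 16.3 ± 1.76 and 19.4 ± 0.349 CPM (log2 0.25, adjusted p 0.0856). An opposite-strand gene, E130208F15Rik, overlaps 69.6% of its annotated exonic length, so its counts are uncertain.

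Among the complex III factors 2 of 4 rose. Complex III, the cytochrome bc1 complex, receives its Rieske iron-sulphur protein, the product of Uqcrfs1, as a last step. Bcs1l, the membrane ATPase that carries the Rieske protein across the inner membrane, stood at 22.9, 22.9 and 19.5 CPM in controls and 27.9, 26.5 and 29.4 CPM in the libraries labelled knockout. The groups did not overlap and the rise was 1.29-fold (log2 0.37, SE 0.079, edgeR adjusted p 0.0130). Uqcc, which supports synthesis of the mitochondrially encoded cytochrome b, was the most counted of the 31, at 118.5, 126.2 and 104.5 CPM in controls. It reached 133.1, 141.9 and 149.0 CPM in the libraries labelled knockout, above every control (1.22-fold, log2 0.28, SE 0.067, adjusted p 0.0211). The call for Bcs1l was lost without labelled knockout 3 (0.0712) and that for Uqcc without control 1 (0.0584), labelled knockout 2 (0.0630) or labelled knockout 3 (0.107). Ttc19, which clears Rieske fragments after assembly, was at 37.7 ± 1.26 and 39.5 ± 1.9 CPM (adjusted p 0.481). Lyrm7, a chaperone of the Rieske protein before its insertion, was the least expressed of the 31 per length (mean rounded FPKM 0.5), at 2.08 ± 0.448 and 2.22 ± 0.186 CPM, with a wide interval (log2 −0.34 to 0.56).

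Complex IV, cytochrome c oxidase, had the largest group, and 4 of its 11 factors rose (median log2 fold change 0.17). It needs a special heme, heme A, which is made by 2 enzymes in turn. Cox10, the first of them, which adds a farnesyl tail to heme B, stood at 42.6, 43.0 and 37.2 CPM in controls and 51.0, 53.6 and 54.8 CPM in the libraries labelled knockout. The groups were clearly separate and the rise was 1.30-fold (log2 0.38, SE 0.063, edgeR adjusted p 0.00377). Cox15, which completes heme A, read 74.1, 76.6 and 69.8 CPM in controls and 78.1, 78.3 and 91.7 CPM in the other group. Labelled knockout 3 was the high library, the groups lay close together, and it did not pass (log2 0.17, adjusted p 0.121).

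Of the 5 factors of copper delivery to complex IV, 2 rose. Cox17 hands copper to Sco1 and Sco2 for the one copper centre and to Cox11 for the other. Cox17 stood at 72.9, 78.4 and 74.0 CPM in controls and 84.4, 95.6 and 90.8 CPM in the libraries labelled knockout (log2 0.27, SE 0.055, edgeR adjusted p 0.0104), with no overlap. Cox11 stood at 17.0, 15.5 and 15.3 CPM in controls and 21.0, 21.2 and 19.6 CPM in the libraries labelled knockout. Its rise was 1.29-fold (log2 0.37, SE 0.075, adjusted p 0.0103), and Tom1l1, on the opposite strand, overlaps 48.3% of its annotated exonic length. The call for Cox17 was lost without labelled knockout 3 (adjusted p 0.0534). Sco2, the copper factor with the highest level per length, read 10.997, 10.2 and 12.7 CPM in controls and 13.2, 13.7 and 13.3 CPM in the other group (log2 0.24, adjusted p 0.134). It cannot be separated well from its neighbours, since Tymp overlaps 68.3% of its exonic length on the same strand and Ncaph2 66.2% on the other. Cox19, a soluble copper-handling factor, was at 42.4 ± 2.68 and 45.2 ± 2.79 CPM, and Sco1 at 21.8 ± 0.198 and 22.8 ± 1.29 CPM (adjusted p 0.367 and 0.562). The 95% intervals of these last 2 (log2 −0.04 to 0.23 and −0.08 to 0.22) reach up to the sizes of the smaller rises.

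Of the other 4 complex IV factors, 1 rose. Taco1, an activator of synthesis of the mitochondrially encoded subunit 1 and the member of this group with the highest level per length, stood at 23.6, 22.9 and 22.2 CPM in controls. It stood at 25.8, 28.8 and 29.3 CPM in the libraries labelled knockout, above every control (1.22-fold, log2 0.29, SE 0.070, edgeR adjusted p 0.0224). The call was lost without control 3 (0.0598), labelled knockout 2 (0.0777) or labelled knockout 3 (0.107), and an antisense gene model overlaps 17.7% of its exonic length. Surf1, whose loss causes Leigh syndrome in humans, had the smallest difference of the 31, at 25.7 ± 1.58 and 26.1 ± 1.07 CPM (log2 0.02, 95% interval −0.13 to 0.17). Cox16 and Cox18, which act on subunit 2, both had a log2 fold change of 0.14 with overlapping groups (adjusted p 0.248 and 0.318). The gene model Gm20498 overlaps 56.8% of the exonic length of Cox16 on the same strand.

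Among the ATP synthase factors 2 of 3 rose. Atpaf2, a chaperone of the alpha subunit, stood at 86.0, 87.0 and 74.1 CPM in controls and 97.3, 103.5 and 107.3 CPM in the libraries labelled knockout. It rose 1.25-fold with no overlap (log2 0.32, SE 0.065, edgeR adjusted p 0.0101). Tmem70, which helps form the ring of c subunits, stood at 71.8, 74.7 and 67.3 CPM in controls and 79.9, 83.7 and 81.5 CPM in the other group (log2 0.20, SE 0.050, adjusted p 0.0253). Atpaf1, the chaperone of the beta subunit, stayed low at 4.64 ± 0.38 and 4.81 ± 0.398 CPM (adjusted p 0.814), and 21.9% of its transcript 50-mers also occur in other genes. The call for Atpaf2 was lost without labelled knockout 3 (0.0592), and that for Tmem70 without control 1 (0.0698), control 3 (0.0730), labelled knockout 2 (0.0874) or labelled knockout 3 (0.0925).

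Oxa1l, the insertase that places mitochondrially made subunits of several complexes into the inner membrane, rose by a small, even step. It read 83.1, 83.7 and 79.2 CPM in controls and 91.2, 92.0 and 96.8 CPM in the libraries labelled knockout, without overlap (1.14-fold, log2 0.19, SE 0.046, edgeR adjusted p 0.0236). Its standard error was the smallest of the 31. The call was lost without control 1 (0.0595), control 3 (0.0652), labelled knockout 2 (0.0547) or labelled knockout 3 (0.118).

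**Figure D2:**
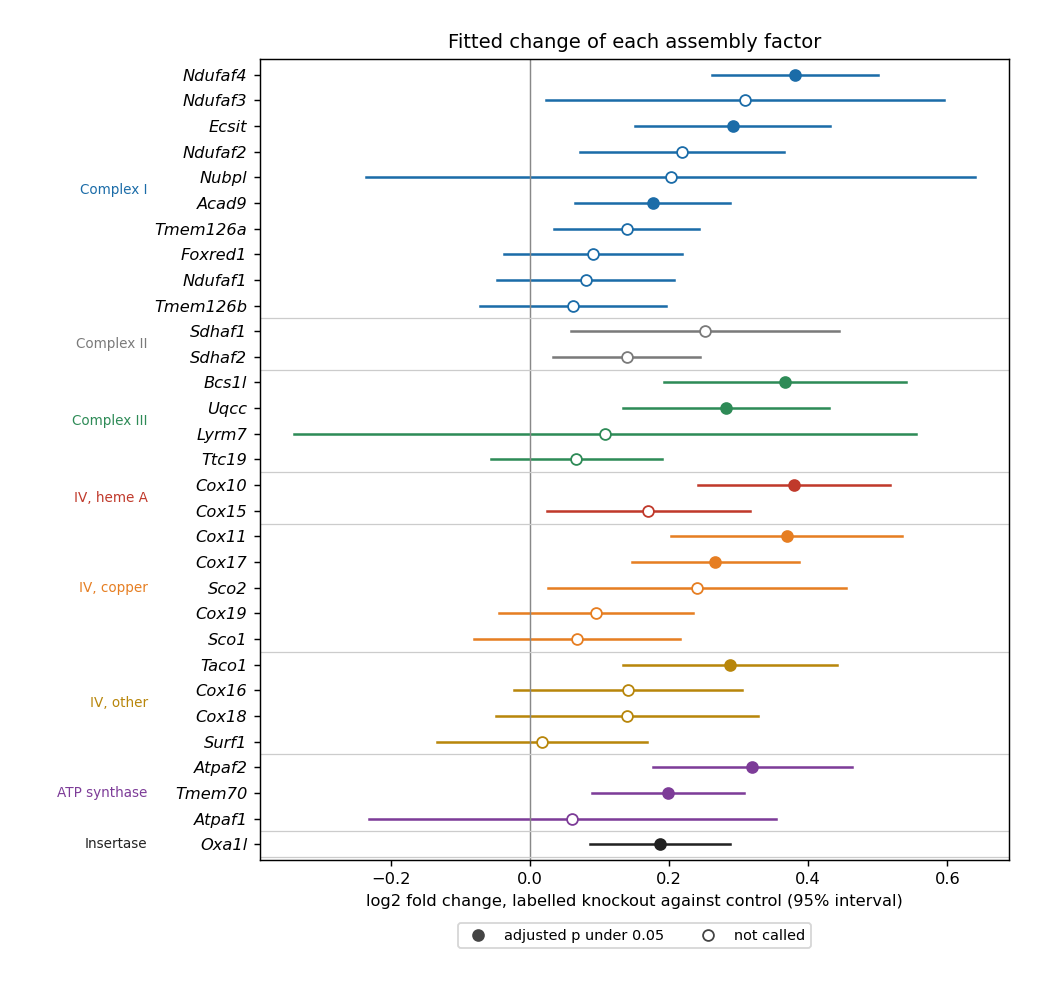
Fitted log2 fold change of each assembly factor in the libraries labelled knockout against control, with its 95% interval, grouped by complex. Filled points are the 12 with an edgeR adjusted p under 0.05 and open points the 19 that were not called; all 31 points lie to the right of 0, and the widest intervals belong to Lyrm7 and Nubpl, the least expressed by rounded FPKM.

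The call at an adjusted p under 0.05 depends on both count and size of change, so the values of called and uncalled factors are given only as a description. The 12 that rose had a median of 73.9 CPM and log2 fold changes of 0.18 to 0.38, and the 19 not called a median of 25.9 CPM and 0.02 to 0.31. Of the 19, 7 had a 95% interval that lay above 0 before adjustment over all genes, so an uncalled factor is not shown to be unchanged. An exact two-sided permutation test of any single factor cannot go below p = 0.1 with 3 against 3 libraries.

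Of the 12 genes listed under older symbols 6 rose and 0 fell, and DESeq2 and limma-voom also called 0 lower. Their median log2 fold change was 0.22. The most counted was 6330578E17Rik, the older name of Coa5, a complex IV factor, at 257, 260 and 223 CPM in controls and 303, 310 and 313 CPM in the libraries labelled knockout. The groups did not overlap, and it rose 1.25-fold (log2 0.33, SE 0.057, edgeR adjusted p 0.00509). The complex I factor Ndufaf5 (2310003L22Rik, log2 0.35, adjusted p 0.0174) rose, as did the complex II factor Sdhaf4 (1110058L19Rik, 0.37, 0.0345). So did 3 complex IV factors, the copper factor Coa6 (1810063B05Rik, 0.37, 0.0303), Cox14 (2310016M24Rik, 0.27, 0.0149) and Cox20 (Fam36a, 0.25, 0.0485). The exons of Fam36a overlap Hnrnpu on the opposite strand over 91.1% of their length, and its call was lost with DESeq2 (0.137) and without any library but control 1 (0.0892 to 0.140). Without labelled knockout 3 only 6330578E17Rik of the 12 rose, and without control 2, control 3 or labelled knockout 2 the number was 3 each. The call for 2310003L22Rik was also lost without control 1 (0.0507), that for 2310016M24Rik without labelled knockout 2, and those for 1110058L19Rik and 1810063B05Rik without control 2 or control 3 (0.0558 to 0.104 over both). Labelled knockout 1 was also needed for 1110058L19Rik (0.0694 without it) and labelled knockout 2 for 1810063B05Rik (0.114). The 6 not called were Ndufaf6 (2310030N02Rik), Ndufaf7 (2410091C18Rik), Timmdc1 (4930455C21Rik), Uqcc2 (2900010M23Rik), Coa3 (Ccdc56) and Pet112 (Pet112l), with log2 fold changes of 0.01 to 0.19. Over all 43 distinct genes on the list, 18 rose (41.9%) and 0 fell, and 4 rose without labelled knockout 3, 9 without labelled knockout 2 and 11 without control 3. The shares of all tested genes that rose in the same order were 2.49%, 4.22% and 4.69%, and 7.68% without control 2.

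The subunits that these factors assemble were far more abundant and rose in a larger share. Per length, the median rounded FPKM was 15.3 for the assembly factors and 190.7 for the 79 nuclear subunits found. Among the 78 subunits that were tested 65 rose and 1 fell. Their median log2 fold change was 0.29, against 0.19 for the factors. By complex, the subunits that rose were 33 of 36 in complex I, 3 of 4 in II, 8 of 9 in III, 12 of 15 in IV and 9 of 14 in ATP synthase. The respective medians were 0.32, 0.26, 0.27, 0.30 and 0.26, each above that of the factors of the same complex (0.19, 0.20, 0.20, 0.17 and 0.20). In complex III the order was the other way without control 2 (factors 0.30, subunits 0.29). It was also the other way when 10 CPM in 3 libraries was required (0.28 and 0.27). The complex II factors numbered only 2, and Sdhaf4 (log2 0.37, under its older symbol) was not among them. Examples are Ndufa11 of complex I (log2 0.39), Sdhb of complex II (0.36), Uqcr10 of complex III (0.25), Cox5a of complex IV (0.32) and Atp5j2 of ATP synthase (0.36). Atp5g3, which encodes a c subunit, was the 1 that fell, by 0.25 on the log2 scale. Without labelled knockout 3 the subunits that rose numbered 24, 1, 2, 6 and 3 in the same order and Atp5g3 was not called, and without labelled knockout 2 they numbered 1 in complex II, 7 in IV and 5 in ATP synthase. The difference between factors and subunits was not tested. Of 8 mitochondrially encoded subunits found, 0 were called by edgeR, DESeq2 or limma-voom (1, mt-Nd3, had an unadjusted p under 0.05 in edgeR). Their median was −0.04, and mt-Nd1 stood at 15790 ± 502 and 15693 ± 379 CPM. The 8 held no ATP synthase subunit and only mt-Co1 of complex IV, so these values do not cover all mitochondrial transcripts. The least counted, mt-Nd3, stood at 1.28 ± 0.183 and 0.75 ± 0.22 CPM (log2 −0.77, edgeR adjusted p 0.0987). Of the transcript 50-mers, 97.99% in mt-Nd3, 62.2% in mt-Nd4 and 51.1% in mt-Co1 also occur in other genes, so their counts are uncertain.

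**Figure D3:**
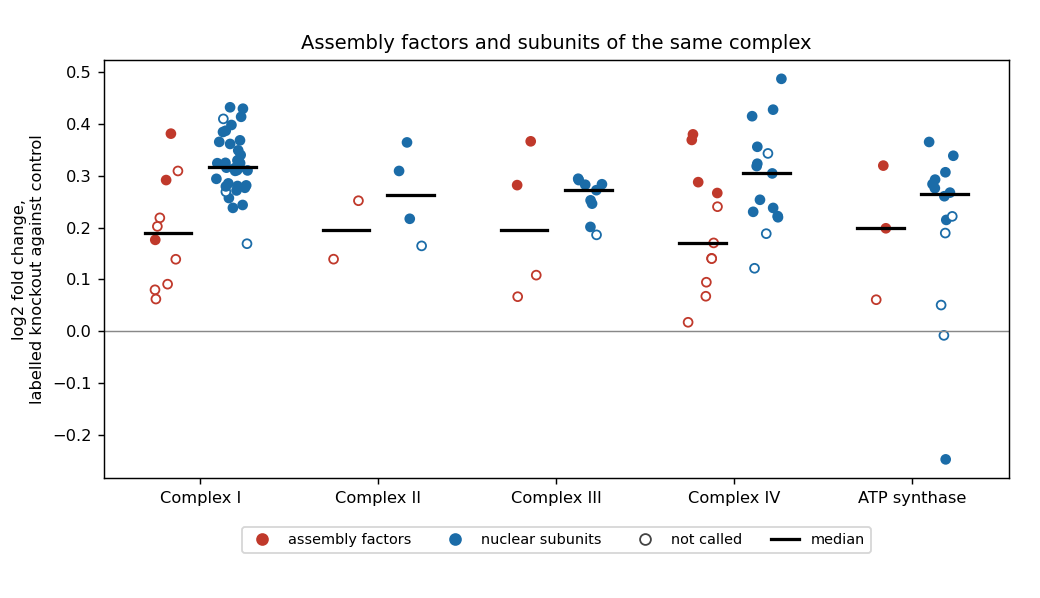
Log2 fold change, libraries labelled knockout against control, of each assembly factor (red) and each nuclear subunit (blue) by complex. Filled points passed an edgeR adjusted p under 0.05, open points did not, and the black line is the median. In this fit with all 6 libraries the median line of the subunits lies above that of the factors in all 5 complexes.

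Other genes around assembly moved in part. Of 11 further assembly factors outside the list, 3 rose (27.3%) and 0 fell, where 6.91% and 5.44% of all tested genes did. Fitted log2 fold changes were above 0 for 9 of the 11 and below 0 for Chchd8 (−0.08) and Lyrm2 (−0.05). Those that rose were Chchd7 (log2 0.41, edgeR adjusted p 0.00144), Higd2a, a complex IV factor (0.20, 0.0476), and Tmem177, which acts on subunit 2 of complex IV (0.30, 0.0494). Higd2a and Tmem177 were not called by DESeq2 (0.0793 and 0.0532) or without control 1, control 3, labelled knockout 2 or labelled knockout 3 (0.0620 to 0.197 over both). Cox17 and Cox19 enter the intermembrane space through the import receptor Chchd4, whose transcript stood at 38.5 ± 1.9 and 49.2 ± 1.27 CPM and rose (log2 0.35, adjusted p 0.00224). Its oxidase Gfer was at 25.1 ± 0.469 and 27.4 ± 1.69 CPM (adjusted p 0.240). Of 4 genes of copper supply, the cytosolic chaperones Ccs (log2 0.27, adjusted p 0.0102) and Atox1 (0.23, 0.0214) rose. The importer Slc31a1 (0.13, 0.143) and the mitochondrial copper and phosphate carrier Slc25a3 (−0.01, 0.879) were not called. The call for Atox1 was lost without control 3 (0.0554), labelled knockout 2 (0.0774) or labelled knockout 3 (0.0781).

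Of 6 regulators of respiratory chain genes, 5 that act on nuclear genes and Tfam on mitochondrial DNA, 5 rose, Tfam among them. The coactivator Ppargc1b stood at 49.1, 50.2 and 45.1 CPM in controls and 64.6, 67.5 and 73.1 CPM in the libraries labelled knockout (log2 0.51, edgeR adjusted p 0.000607). The receptor Esrra (log2 0.45, adjusted p 0.00198), the coactivator Ppargc1a (0.32, 0.00324), the ETS factor subunit Gabpa (0.29, 0.0302) and the mitochondrial DNA factor Tfam (0.26, 0.0108) also rose. Nrf1 stood at 46.3 ± 1.08 and 47.0 ± 2.78 CPM (log2 0.02, 95% interval −0.10 to 0.14). Levels of these transcripts say nothing of their occupancy at the promoters printed above. The call for Gabpa was lost without control 1 (0.0864), control 3 (0.0524), labelled knockout 2 (0.111) or labelled knockout 3 (0.105), and that for Tfam without labelled knockout 3 (0.0656).

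The libraries of a group did not hold the factors at the same level. The median log2 ratio of the 31 factors to the control mean was 0.03, 0.06 and −0.08 for controls 1, 2 and 3, and 0.17, 0.17 and 0.23 for the libraries labelled knockout. The subunits had the same order among controls (0.03, 0.06 and −0.09), and among the libraries labelled knockout they stood at 0.21, 0.35 and 0.32. Control 3 was the lowest library for 22 of 31 factors, and it also had the lowest sum of adipocyte markers and the highest of fibroblast markers. Without control 3 the factors that rose numbered 8 (median log2 fold change 0.16), without control 1 also 8, without labelled knockout 2 they numbered 6 and without labelled knockout 3 they numbered 3. Of all tested genes 2.49% rose without labelled knockout 3, 4.22% without labelled knockout 2, 4.69% without control 3 and 4.17% without control 1. Ndufaf4, Cox10 and Cox11 passed in all 6 fits that left out 1 library.

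**Figure D4:**
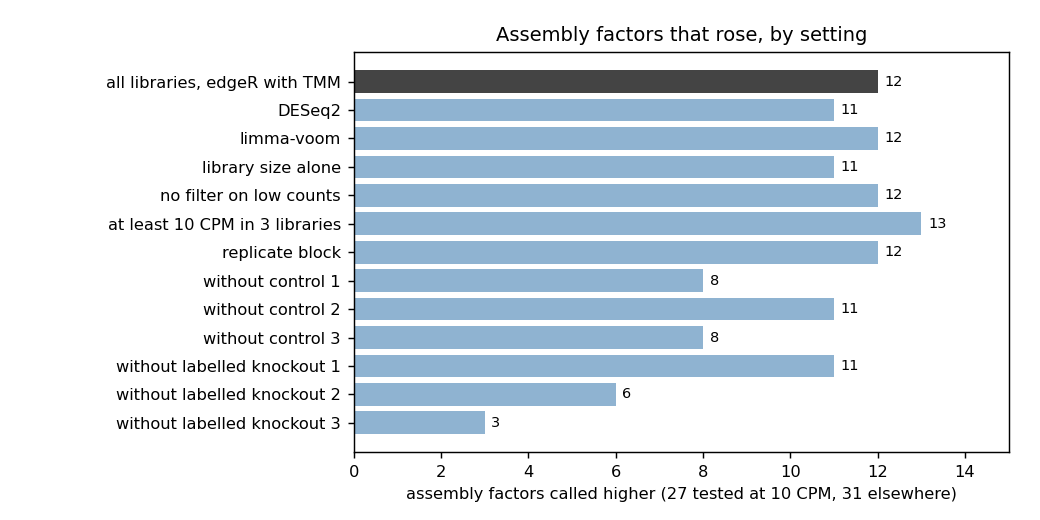
Number of assembly factors called higher (horizontal axis, from 0) under each way of analysing the counts. The dark bar is the analysis with all 6 libraries (12 factors); changing the tool, scaling or filter gave 11 to 13, and leaving out 1 library gave 3 to 11.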

How the data were processed

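Poly(A) RNA of 6 libraries was compared as 3 against 3. Per the file headers, the deposited table gives raw counts by Ensembl ID and name. It also holds FPKM values that the authors rounded to whole numbers, handled here as a score for comparing levels between genes. The submitters' processing notes name Novoalign 2.8, Picard, DESeq2 and build mm9. The counting tool, annotation and strand setting were not given in the sources used here, so overlapping genes are uncertain although the kit was stranded per the labels' protocols. The largest count of any listed gene is 10 or more.

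Testing used edgeR 4.0.16 under R 4.3.3. The package's expression filter kept 13192 genes and set 770 aside, TMM scaling was applied, and the quasi-likelihood test used the group alone, with Benjamini-Hochberg adjustment over all tested genes and a threshold of 0.05. The SE was derived from the F value. The biological coefficient of variation was 5.25%. The script was tested on simulated counts, where 5 of 50 changes of log2 0.2 and 43 of 50 of log2 0.4 were recovered. In that simulation 157 genes were called, fewer than in the data, and 10 of the calls were false. Libraries within a group differed beyond sampling noise (chi-square per degree of freedom 2.97 to 7.81). DESeq2 1.42.0, limma-voom (limma 3.58.1), library size alone, 2 other filters, a replicate block and leaving out each library were tried. Exonic overlaps and 50-mers shared between genes come from GENCODE M21 on GRCm38, where 13506 IDs were found, so they approximate the authors' build.

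The members and lists were chosen with earlier results of these data known. Values in every library were given for Tle3, for called members (up to 4 per group of factors), and for the member of each group with the highest level per length. Of other lists up to 3 called genes with the smallest adjusted p were named, and all regulators. The c subunit gene Atp5g3, the further factors Chchd8 and Lyrm2 and the mitochondrially encoded mt-Nd3, mt-Nd4 and mt-Co1 were named after their values were seen. So were the beige markers Ucp1, Cidea, Cox8b, Dio2 and Tmem26, the adipocyte markers Lipe, Cd36 and Lpl, and the fibroblast and preadipocyte markers.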

Additional observations from a re-analysis of the deposited data

How the results depend on the processing

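The count of assembly factors that rose was 12, and it was 11 with DESeq2, 12 with limma-voom, 11 with library size alone, 12 without a filter, 13 of 27 tested when 10 CPM in 3 libraries was required, and 12 with a replicate block. It ran from 3 to 11 without 1 library. The number of all genes changed was 1629, or 1288 with DESeq2, 1685 with library size alone (860 higher and 825 lower, against 911 and 718), 1809 with the replicate block and 621 to 1895 without 1 library. Deviations of same-numbered libraries from their group means correlated weakly (r of −0.04, 0.19 and 0.03), against 0.23 for control 3 and labelled knockout 1. On the second principal component (19.5% of the variance), however, control 2 and labelled knockout 2 stood at −12.9 and −12.3. The other libraries stood at −0.97 to 10.2. Whether the numbers mark a pairing or a shared batch cannot be told from these values. The block changed no call of the 31 factors and lost that of Fam36a (adjusted p 0.0547). No factor was called lower under any of these settings. Of 368 fitted values of single factors under an alternative, 337 kept direction and call, 27 lost the call, 1 gained it and 3 changed sign; none of those 3 was called in any fit. The sign changes came in fits without 1 library, in which Lyrm7 ran from −0.0144 to 0.266 (log2), Surf1 from −0.0294 to 0.0493, 2410091C18Rik from −0.0326 to 0.112, Pet112l from −0.058 to 0.058, Nrf1 from −0.0177 to 0.0656 and mt-Nd1 from −0.032 to 0.0103. Pet112l also changed sign with library size alone (−0.000817). The cause of these changes was not tested, beyond the fewer libraries in each such fit. Depth limits Lyrm7, Nubpl and Atpaf1 most, and the lowest count of any factor in a library was 29.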
